A study of Oryza sativa Japonica Group with 74 samples.

Results

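Expansins are wall proteins of growing plant cells, and the rice genes described here are the α-expansins EXPA1 (Os04g0228400), EXPA2 (Os01g0823100) and EXPA4 (Os05g0477600) and the β-expansins EXPB3 (Os10g0555900) and EXPB4 (Os10g0556100). These 5 genes of the 37849 in the deposited tables were chosen by name. RNA sequencing was done on whole rice plants labelled as 21 days old, in a study of photoperiod signalling by the red light receptor phytochrome B and by a circadian clock complex that holds ELF3 and LUX. Of 74 libraries, 57 were used, in 25 groups, of which 18 hold 2 libraries and 7 hold 3. The mutants were the double mutant Oself3-1 -/- Oself3-2 -/- (called elf3-1 elf3-2, 14 of 17 libraries used), OsphyB-/- (phyB, 14 of 18) and OsLUX-/- (lux, 3 of 3). The wild type (WT, japonica cultivar Nipponbare) had 26 of 36 libraries. Long days (LD) had 14 h of light and 10 h of dark, and short days (SD) the reverse. Zeitgeber time (ZT) is read as hours after lights on, so that lights went off at ZT14 in LD and at ZT10 in SD. The WT was sampled at ZT2, ZT6, ZT10, ZT14, ZT18 and ZT24 in both day lengths, elf3-1 elf3-2 and phyB at ZT6, ZT14 and ZT18 in both, and lux at ZT14 in SD alone. The labels do not say whether replicates came from separate plants or from separate clones of a mutant, so the p-values measure the spread between these libraries.

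Expansins loosen the cell wall without cutting its polymers, and the wall then yields to turgor. α-Expansins act best at acid pH and are linked with acid growth; β-expansins form a large family in grasses, whose pollen allergens belong to it. In rice, EXPA4, EXPB3 and EXPB4 are known from work on stem growth, where their transcripts are more abundant in elongating internodes. NCBI RefSeq lists 49 expansin loci in japonica rice, of which 29 are α-expansins and 15 β-expansins. EXPB3 and EXPB4 are neighbouring coding genes on chromosome 10, with EXPB2 on the other side of EXPB3. EXPA1 lies on chromosome 4, EXPA2 on chromosome 1 and EXPA4 on chromosome 5.

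The 57 libraries held 25660600 to 51798162 counts in all (median 36256019). The 17 others were left out because their labels are doubted: replicate 1 of phyB and WT at ZT6 and ZT14, of elf3-1 elf3-2 at ZT6 and at ZT14 SD, as well as the first WT replicate at ZT10 and the third at ZT24 and ZT2. Over the 3000 most variable genes, 16 of these 17 lay nearer to another group's mean than to their own, against 1 of the 57 used, elf3-1 elf3-2 replicate 3 at ZT6 LD. The group means were taken over the 57 libraries used alone, so these numbers describe the choice and are no independent check of it. All 4 doubted phyB libraries lay nearest to an elf3-1 elf3-2 group, all 3 doubted elf3-1 elf3-2 libraries nearest to a WT group, and 4 of the 10 doubted WT libraries nearest to a phyB group. Results are therefore given without and with them. Transcripts of the mutated genes ELF3-1, PHYB and LUX were detected in their mutants, while ELF3-2 was not examined. The levels of these transcripts in the libraries left out were not examined, so they were not used to check the labels. In TPM (transcripts scaled by length and library), ELF3-1 (Os06g0142600) stood at 29.8 to 67.4 in elf3-1 elf3-2 and 47.2 to 146 in WT. These ranges pool all times, and at ZT14 SD alone WT stood at 108.5 to 123.7 TPM. PHYB (Os03g0309200) stood at 20.6 to 49.9 TPM in phyB and 16.6 to 89.2 TPM in WT, again over all times, and at 73.5 to 89.2 TPM in WT at ZT14 SD. At ZT14 SD LUX (Os01g0971800) stood at 46.7 to 55.7 TPM in lux and 64.9 to 75.2 TPM in WT.

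The 5 genes spanned a wide range of levels, given in TPM. EXPB3 was the most abundant, at 39.4 to 348 TPM over the 57 libraries (median 164). EXPA2 lay between 15.7 and 210.2 TPM (median 61.6) and EXPA4 between 5.72 and 114 TPM (median 41.4). EXPB4 had the widest range among the well detected genes as a ratio of highest to lowest, 2.35 to 239.9 TPM around a median of 14.4. EXPA1 was barely detected outside lux. Its median was 0.744 TPM, or 20 counts, and it had fewer than 10 counts in 15 libraries. In 2 libraries its count was 0, which does not show that the transcript was absent. Of the 55 nonzero EXPA1 counts, taken at any size up to 459, 51 were even (92.7%). Among all genes, 55.9% of counts between 5 and 60 were even, a narrower range of counts. The EXPA1 steps were thus often of 2 counts, and its precision may be lower than the count shows. How this arose was not tested.

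The highest group mean was that of lux at ZT14 SD for EXPA1, EXPA2, EXPB3 and EXPB4, and that of phyB at ZT18 SD for EXPA4 (101 ± 11.7 TPM, SD, n = 3), whose range overlapped that of lux (94.6 ± 3.34 TPM, SD, n = 3). The lowest means were those of WT at ZT24 LD for EXPA1, ZT24 SD for EXPA2, ZT6 LD for EXPA4 and EXPB4 and ZT10 LD for EXPB3. The ratio of highest to lowest mean was 92.7 for EXPB4, 11.6 for EXPA4, 11.3 for EXPA2 and 5.87 for EXPB3; for EXPA1 the lowest group held 2 counts in all and no ratio is given. Most neighbours in the order of the 25 group means could not be told apart by their ranges. They overlapped in 22 of 24 neighbouring pairs for EXPA1, 18 for EXPA2 and EXPB4, and 17 for EXPA4 and EXPB3.

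In WT plants EXPA2, EXPA4, EXPB3 and EXPB4 followed a daily course in both day lengths, with their lowest means at ZT6, ZT10 or ZT24 and high levels at ZT18. Tests were edgeR's quasi-likelihood F test with Benjamini-Hochberg adjustment over the 28905 genes tested, called at an adjusted p of 0.05. Counts were scaled on the assumption that most genes do not change. On the deposited TPM scale the median of all genes moved by −0.17 to 0.34 on the log2 scale in 66 contrasts, by over 0.1 in 23, and no called expansin changed sign. Time of day passed for these 4 of 5 genes in LD (67.4% of all genes were called) and in SD (76.2%), with adjusted p between 2.3e-09 and 1.7e-06 in LD and between 1.3e-10 and 2.4e-08 in SD. EXPA1 did not pass with edgeR (adjusted p = 0.22 in LD and 0.11 in SD), while DESeq2 called 5 of 5 genes in LD and limma 4. All 8 calls held with any 1 library left out and with all 74 libraries (56.3% and 70.5% of genes called); without WT replicate 2 at ZT2 SD (adjusted p = 0.039) or replicate 1 at ZT24 SD (0.0498), EXPA1 also passed in SD.

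**Figure D1:**
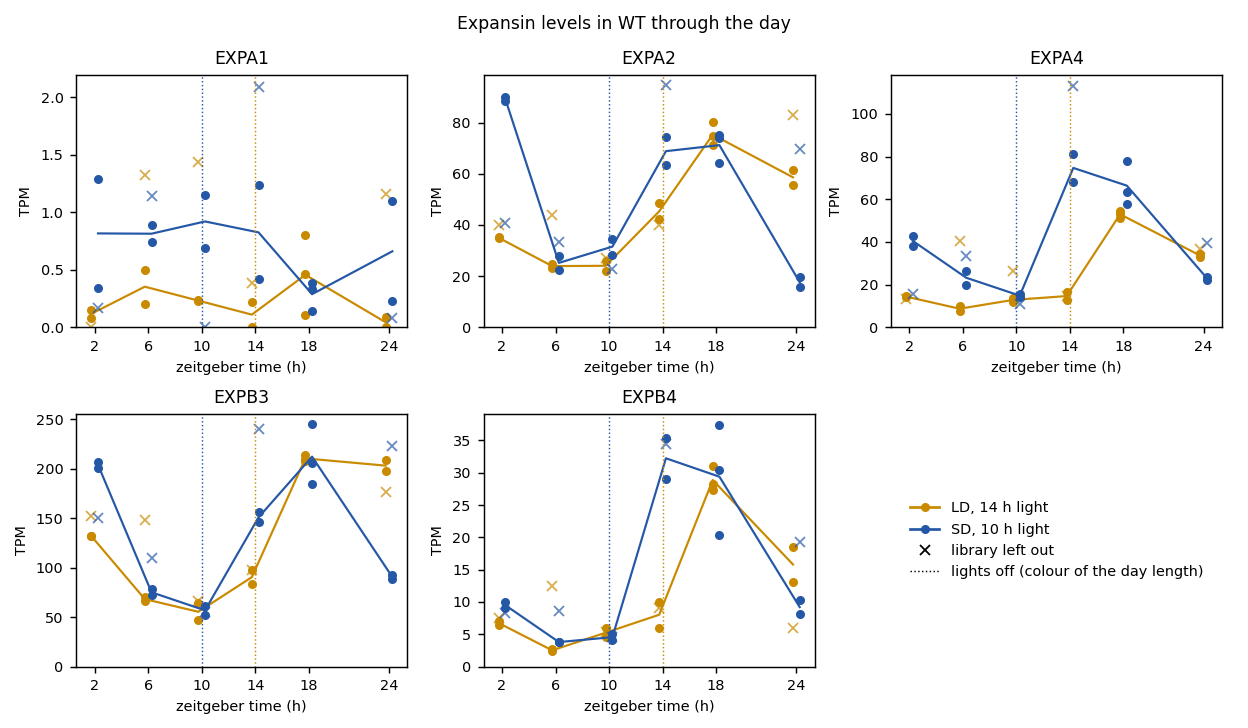
TPM of each expansin in WT against zeitgeber time in hours, LD and SD; filled points are single libraries used, lines join their means, crosses are libraries left out and dotted lines mark lights off. In SD, EXPA4 and EXPB4 were high at ZT14, when in LD they were still low.

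EXPB4 in SD stood at 9.94 and 9.04 TPM at ZT2, 3.81 and 3.77 at ZT6, 5.07 and 4.03 at ZT10, 29.1 and 35.4 at ZT14, 30.5, 20.3 and 37.4 at ZT18, and 10.2 and 8.16 at ZT24. In LD it stood at 6.44 and 7.03 TPM at ZT2, 2.35 and 2.66 at ZT6, 5.94 and 4.54 at ZT10, 10.0 and 6.02 at ZT14, 27.3, 31.1 and 28.2 at ZT18, and 13.1 and 18.5 at ZT24. The dark values at ZT18 lay above every light value in both day lengths, and ZT14 joined them in SD alone.

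EXPA4 followed a like course, with 38.1 and 42.8 TPM at ZT2, 26.6 and 19.8 at ZT6, 15.4 and 14.3 at ZT10, 68.3 and 81.1 at ZT14, 63.5, 57.7 and 77.9 at ZT18, and 22.1 and 23.7 at ZT24 in SD. In LD it stood at 14.7 and 14.1 TPM at ZT2, 7.48 and 9.89 at ZT6, 13.9 and 11.7 at ZT10, 16.7 and 12.6 at ZT14, 52.9, 54.7 and 51.4 at ZT18, and 32.7 and 34.4 at ZT24. No LD library used between ZT2 and ZT14 reached 17 TPM, while the left-out replicate 1 held 40.2 TPM at ZT6 and 26.6 TPM at ZT10.

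EXPA2 and EXPB3 were high at ZT2 in SD as well as at night. EXPA2 stood in SD at 88.3 and 90.1 TPM at ZT2, 27.9 and 22.4 at ZT6, 34.7 and 28.4 at ZT10, 63.5 and 74.2 at ZT14, 74.2, 64.3 and 75.1 at ZT18, and 15.7 and 19.5 at ZT24. EXPB3 stood in SD at 201 and 207 TPM at ZT2, 72.1 and 78.1 at ZT6, 61.7 and 52.0 at ZT10, 146 and 156 at ZT14, 206, 185 and 246 at ZT18, and 88.3 and 92.8 at ZT24. Both genes were low at the end of the SD night and high shortly after lights on. In LD EXPA2 stood at 34.7 and 35.3 TPM at ZT2, 71.1, 80.2 and 74.7 at ZT18 and 61.6 and 55.7 at ZT24. Between ZT2 and ZT18 it stood at 23.0 and 24.8 TPM at ZT6, 25.9 and 22.15 at ZT10, and 48.5 and 42.2 at ZT14. EXPB3 stood in LD at 132 and 132 TPM at ZT2, 214, 210.0 and 208 at ZT18 and 209 and 198 at ZT24. Between ZT2 and ZT18 it stood at 65.9 and 70.5 TPM at ZT6, 63.8 and 47.0 at ZT10, and 97.7 and 83.1 at ZT14. Neither gene had such a dip at ZT24 in LD. Nor did the left-out SD library of that time show it: replicate 3 at ZT24 held 69.8 TPM of EXPA2 and 223 TPM of EXPB3, and it lay nearest to the LD group of that time.

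The steps between neighbouring times were tested after the values were seen. Of 60 steps (5 genes, 12 steps), 26 passed, 12 upwards and 14 downwards, where 31% of all gene by step values did; with all 74 libraries 11 passed (17.1% of all values). In SD the step over lights off, ZT14 over ZT10 (40.1% of genes called, 19.3% upwards), gave log2 fold changes of 2.50 ± 0.39 for EXPB4 (standard error, adjusted p = 1.6e-06), 2.06 ± 0.29 for EXPA4 (2.6e-07), 1.14 ± 0.25 for EXPB3 (0.00033) and 0.86 ± 0.25 for EXPA2 (0.0049). In LD the corresponding step, ZT18 over ZT14 (27% called, 13.7% upwards), gave 1.76 ± 0.34 for EXPB4 (0.00011), 1.79 ± 0.27 for EXPA4 (3.2e-06), 1.15 ± 0.23 for EXPB3 (0.00018) and 0.67 ± 0.23 for EXPA2 (0.024). No other step was called upwards in 4 genes. In LD EXPA2 had also risen before lights off, at ZT14 over ZT10 (0.77, edgeR's adjusted p = 0.028), a call lost without any 1 of its libraries. EXPB3 did not pass there with edgeR (adjusted p = 0.12) but did with limma (0.71, 0.024). Over lights off, the calls for EXPB4, EXPA4 and EXPB3 held without any 1 library and with all 74 libraries. That of EXPA2 in SD was lost without WT replicate 3 at ZT10 (adjusted p = 0.079) or ZT14 (0.073), and that in LD without replicate 2 or 3 at ZT14 (0.08 and 0.17), without replicate 2 at ZT18 (0.063) and with all 74 libraries (0.23).

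Later in the SD night all 4 genes fell between ZT18 and ZT24, by 1.81 ± 0.25 for EXPA2, 1.33 ± 0.26 for EXPA4, 1.02 ± 0.23 for EXPB3 and 1.45 ± 0.33 for EXPB4 on the log2 scale (standard errors; adjusted p = 1.1e-07, 5.8e-05, 0.00032 and 0.00045). These calls held without any 1 library, where 46.7% of genes were called and 25.2% fell. When all 74 libraries entered, only that of EXPA2 passed (−0.90, adjusted p = 0.042). EXPA2, EXPA4 and EXPB3 then rose between ZT24 and ZT2 in SD (2.53 ± 0.26, 1.01 ± 0.28 and 1.36 ± 0.25, adjusted p = 4.6e-10, 0.0037 and 2.3e-05; 42.4% of genes called), of which EXPA2 alone passed with all 74 libraries (1.31, adjusted p = 0.004). EXPB4 did not pass there (0.22 ± 0.39, adjusted p = 0.71). In LD no gene passed between ZT18 and ZT24 with edgeR (35.3% of genes called; 1 of 5 at an unadjusted p under 0.05, 1 with DESeq2 and 2 with limma; EXPA1 passed without WT replicate 1 at ZT18 LD, 0.038). Between ZT2 and ZT6 EXPB3 fell in both day lengths, by 1.10 ± 0.25 in LD (adjusted p = 0.00077, 27.8% of genes called) and 1.52 ± 0.25 in SD (9e-06, 30.6%). EXPA2 fell there by 1.91 ± 0.25 in SD (adjusted p = 2e-07). These calls held without any 1 library, and with all 74 libraries the SD calls held and that in LD did not (0.19).

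Day length changed the daily course of EXPA2, EXPA4, EXPB3 and EXPB4 in WT. All 5 genes were lower in LD at ZT14, EXPA2 and EXPA4 also at ZT2, while at ZT24 EXPA2 and EXPB3 were higher in LD. The interaction of time with day length passed for these 4 of 5 genes (53.6% of all genes were called), with F of 15.7, 13.0, 7.10 and 6.46 and adjusted p of 3.3e-07, 2.3e-06, 0.00039 and 0.00079. For EXPA1 it did not with edgeR (adjusted p = 0.054), but DESeq2 called all 5 genes, and with edgeR it passed without WT replicate 3 at ZT14 LD, 1 at ZT18 LD, or 2 at ZT2, ZT14 or ZT24 SD (0.025 to 0.032). In the fit of all 74 libraries EXPA2 and EXPA4 passed (adjusted p = 0.013 and 0.0033, 26.7% of genes called), and EXPB3 (0.086) and EXPB4 (0.054) did not. LD against SD over all 6 times passed for all 5 genes (66.6% of all genes), and for EXPA2, EXPA4 and EXPB4 with all 74 libraries (42.3%).

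At ZT14 all 5 expansins were lower in LD than in SD, where 41% of all genes differed and 20.5% were lower. EXPA4 stood at 16.7 and 12.6 TPM in LD and 68.3 and 81.1 TPM in SD, a log2 fold change of −2.37 ± 0.29 (standard error, adjusted p = 1.8e-08). EXPB4 stood at 10.0 and 6.02 TPM in LD and 29.1 and 35.4 TPM in SD (−2.04 ± 0.36, adjusted p = 1.3e-05). Both calls held without any 1 library and with all 74 (−2.53 and −1.93 on the log2 scale). EXPB3 stood at 97.7 and 83.1 TPM in LD and 146 and 156 TPM in SD (−0.76 ± 0.25, adjusted p = 0.012), and its call was lost without replicate 3 of LD (0.096) or of SD (0.081) but not with all 74 libraries (0.02). EXPA2 stood at 48.5 and 42.2 TPM in LD and 63.5 and 74.2 TPM in SD (−0.63 ± 0.24, adjusted p = 0.036), lost without LD replicate 2 (0.075), LD replicate 3 (0.17) or SD replicate 3 (0.24) and with all 74 libraries (0.077). EXPA1 held 0 and 6 counts in LD and 10 and 38 counts in SD (adjusted p = 0.012), lost without LD replicate 2 (0.15) or SD replicate 3 (0.34) and held with all 74 libraries (0.021). The day lengths did not overlap for any of the 5 genes. With 2 libraries in each group such gaps can arise without a change, and the share of all genes showing one was not counted. Of the marker lists, green leaf genes moved at this time too, 1 of 3 higher and 2 of 3 lower in LD, while 0 of 4 genes of dividing cells and 1 of 5 root genes (higher) were called; their part in the result was not tested.

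At ZT2 EXPA2 stood at 34.7 and 35.3 TPM in LD and 88.3 and 90.1 TPM in SD (−1.43 ± 0.25, adjusted p = 2.1e-05), and EXPA4 at 14.7 and 14.1 TPM in LD and 38.1 and 42.8 TPM in SD (−1.57 ± 0.30, adjusted p = 7e-05). These were called without any 1 library but not with all 74 (adjusted p = 0.073 and 0.11). EXPB3 (−0.71 ± 0.24, adjusted p = 0.025) lost its call without any of the 4 libraries (0.083 to 0.11) and with all 74 (0.41). EXPB4 did not pass (−0.52 ± 0.40, adjusted p = 0.37). Of the genes tested, 29.9% differed at ZT2 and 15.5% were lower in LD. So were 2 of 4 dividing-cell genes (CDKB2;1, −2.69, and PCNA, −0.88), 1 of 5 root genes (Lsi1, −0.61) and 1 of 3 green leaf genes (RBCS, −0.85), and their part was not tested. At ZT24 the direction was the other way for EXPA2, with 61.6 and 55.7 TPM in LD and 15.7 and 19.5 TPM in SD (1.63 ± 0.26, adjusted p = 6.1e-06). So it was for EXPB3, with 209 and 198 TPM in LD and 88.3 and 92.8 TPM in SD (1.06 ± 0.25, adjusted p = 0.00087). At ZT24 33.8% of genes differed, and both calls held without any 1 library but were lost with all 74 (0.062 and 0.29). Of the markers, 1 of 5 root genes (Lsi1, −1.16) and 1 of 3 green leaf genes (CAB1R, −2.15) were lower in LD at ZT24, their part likewise not tested. EXPA1 was also called at ZT2 and ZT24, at 4 and 3 counts in LD and 32 and 10 in SD, and at 2 and 0 counts in LD and 26 and 6 in SD. These calls (adjusted p = 0.043 and 0.023) rest on single libraries. The first was lost without LD replicate 1 (0.14), LD replicate 2 (0.18) or SD replicate 1 (0.54). The second was lost without LD replicate 1 (0.051), LD replicate 2 (0.16) or SD replicate 1 (0.41), and neither passed with all 74 libraries (0.23 and 0.99).

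At ZT6 EXPA4 alone differed, at 7.48 and 9.89 TPM in LD and 26.6 and 19.8 TPM in SD (−1.55 ± 0.32, adjusted p = 0.00041; 0.56 with all 74 libraries), where 19.8% of genes were called and 11.5% were lower. At ZT18, in the dark in both day lengths and with 3 libraries in each group, none of the 5 passed with edgeR, DESeq2 or limma or at an unadjusted p under 0.05, where 35.3% of genes did. The differences ran from −0.44 ± 0.22 for EXPA4 to 0.69 ± 0.76 for EXPA1. At ZT10 none passed with edgeR either (16.6% of genes), although 2 of 5 had an unadjusted p under 0.05 and 1 passed with DESeq2 and none with limma. In all, 13 of 30 gene by time values passed, 2 higher and 11 lower in LD, where 29.4% of all values did; with all 74 libraries 4 passed, all at ZT14 (8.88% of all values).

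**Figure D2:**
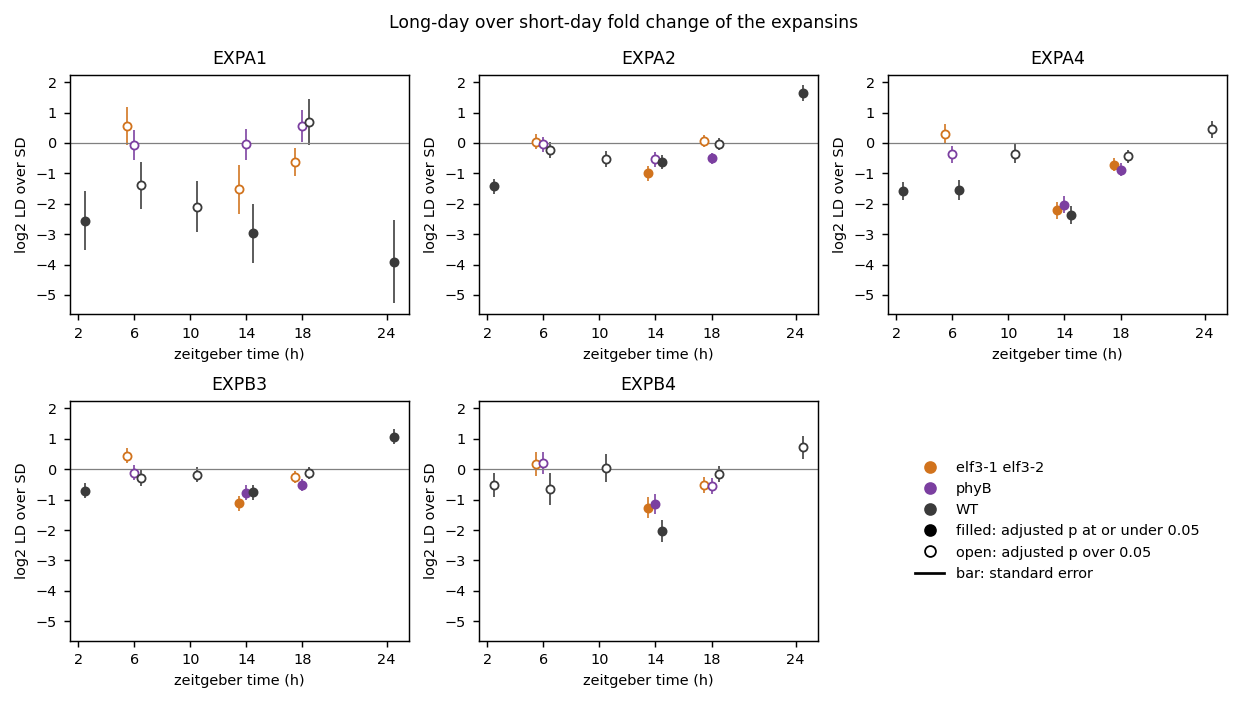
Log2 fold change of LD over SD (± standard error) for each expansin against zeitgeber time in hours, in elf3-1 elf3-2, phyB and WT; filled points passed at an adjusted p of 0.05. EXPA4 was lower in LD at ZT14 in all 3 genotypes, while at ZT18 no WT value passed; the EXPA1 point at ZT24 rests on 2 counts in LD.

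At ZT14 EXPA4, EXPB3 and EXPB4 were lower in LD than in SD in both mutants too, and EXPA1 passed in neither (−1.53 ± 0.81, adjusted p = 0.14, in elf3-1 elf3-2 and −0.04 ± 0.51, 0.99, in phyB). In elf3-1 elf3-2, EXPA4 stood at 15.9 and 17.5 TPM in LD and 70.2 and 83.9 TPM in SD (−2.22 ± 0.28, adjusted p = 5.6e-08). In phyB it stood at 19.9 and 20.7 TPM in LD and 87.1 and 98.5 TPM in SD (−2.03 ± 0.28, adjusted p = 2.6e-07). EXPB4 stood in elf3-1 elf3-2 at 8.79 and 9.66 TPM in LD and 25.8 and 19.8 TPM in SD (−1.26 ± 0.35, adjusted p = 0.0038), and in phyB it stood at 26.2 and 10.1 TPM in LD and 41.4 and 46.5 TPM in SD (−1.14 ± 0.32, adjusted p = 0.0052). The phyB call of EXPB4 was lost without LD replicate 3 (0.23). EXPA2 and EXPB3 were lower in LD in elf3-1 elf3-2 (−1.0 ± 0.24 and −1.12 ± 0.25, adjusted p = 0.00092 and 0.00032). In phyB EXPB3 passed (−0.77 ± 0.24, adjusted p = 0.013), a call lost without LD replicate 2 or SD replicate 3. EXPA2 did not pass in phyB with edgeR (−0.54 ± 0.24, adjusted p = 0.079) but did with limma (−0.69, 0.018). The background was 39.5% of genes in elf3-1 elf3-2, 20% lower in LD, and 34% in phyB, 17.8% lower. In the fit of all 74 libraries, with 6.52% of genes called in elf3-1 elf3-2 and 23.1% in phyB, EXPA4 kept its call in elf3-1 elf3-2 (adjusted p = 0.032), while EXPA2, EXPB3 and EXPB4 lost theirs there (0.27, 0.16 and 0.3). In phyB EXPA2, EXPA4, EXPB3 and EXPB4 all passed (adjusted p = 0.00016 to 0.021).

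At ZT18 EXPA4 was lower in LD than in SD in both mutants. It stood at 41.4, 58.1 and 42.2 TPM in LD and 75.4, 61.4 and 72.1 TPM in SD in elf3-1 elf3-2 (−0.72 ± 0.22, adjusted p = 0.0085, 37.3% of genes called, 19.2% lower), and it stood at 60.8, 62.5 and 55.9 TPM in LD and 94.9, 93.5 and 114 TPM in SD in phyB (−0.88 ± 0.21, adjusted p = 0.0015, 28.5% of genes called, 14.4% lower). Both held without any 1 library; with all 74 libraries, where no ZT18 library changes but the shared spread does, neither passed (0.28 and 0.23). EXPA2 and EXPB3 passed in phyB at ZT18 with adjusted p of 0.046 and 0.042 (−0.51 ± 0.20 and −0.53 ± 0.20). EXPA2 lost its call without LD replicate 1 (0.16), 2 (0.077) or 3 (0.065) or SD replicate 1 (0.07) or 3 (0.22), and EXPB3 without any of the 6 (0.057 to 0.15). The test of whether the day length effect differs between mutant and WT passed for 1 of 30 values, EXPA4 in elf3-1 elf3-2 at ZT6 (3.54% of all values were called). At ZT14 these differences were 0.15 ± 0.40 for EXPA4 and 0.77 ± 0.50 for EXPB4 in elf3-1 elf3-2 and 0.34 ± 0.40 and 0.90 ± 0.48 in phyB, so a sizeable difference remains within their errors.

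Averaged over the 6 shared conditions, all 5 expansins were higher in phyB than in WT, where 46.5% of genes differed and 22.6% were higher. The log2 fold changes were 1.47 ± 0.28 for EXPA1 (adjusted p = 2.5e-05), 0.33 ± 0.09 for EXPA2 (0.0038), 0.69 ± 0.11 for EXPA4 (1.7e-06), 0.50 ± 0.09 for EXPB3 (3.4e-05) and 0.87 ± 0.15 for EXPB4 (4.6e-06). Their median of 0.69 stood beside a median of 0.00 over all genes. Every one of the 5 calls held with any 1 library left out. Across all 74 libraries, 1 of the 5, EXPA1, passed (0.99, adjusted p = 0.027, 13.9% of genes called), and the others were 0.27 to 0.46 with adjusted p of 0.073 to 0.24. Of the markers, IRT1 (0.46) of 5 root genes was higher, CDKB2;1 (0.41) was higher and PCNA (−0.17) lower of 4 dividing-cell genes, and RCA (0.36) was higher and RBCS (−0.16) lower of 3 green leaf genes on average in phyB; their part was not tested.

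**Figure D3:**
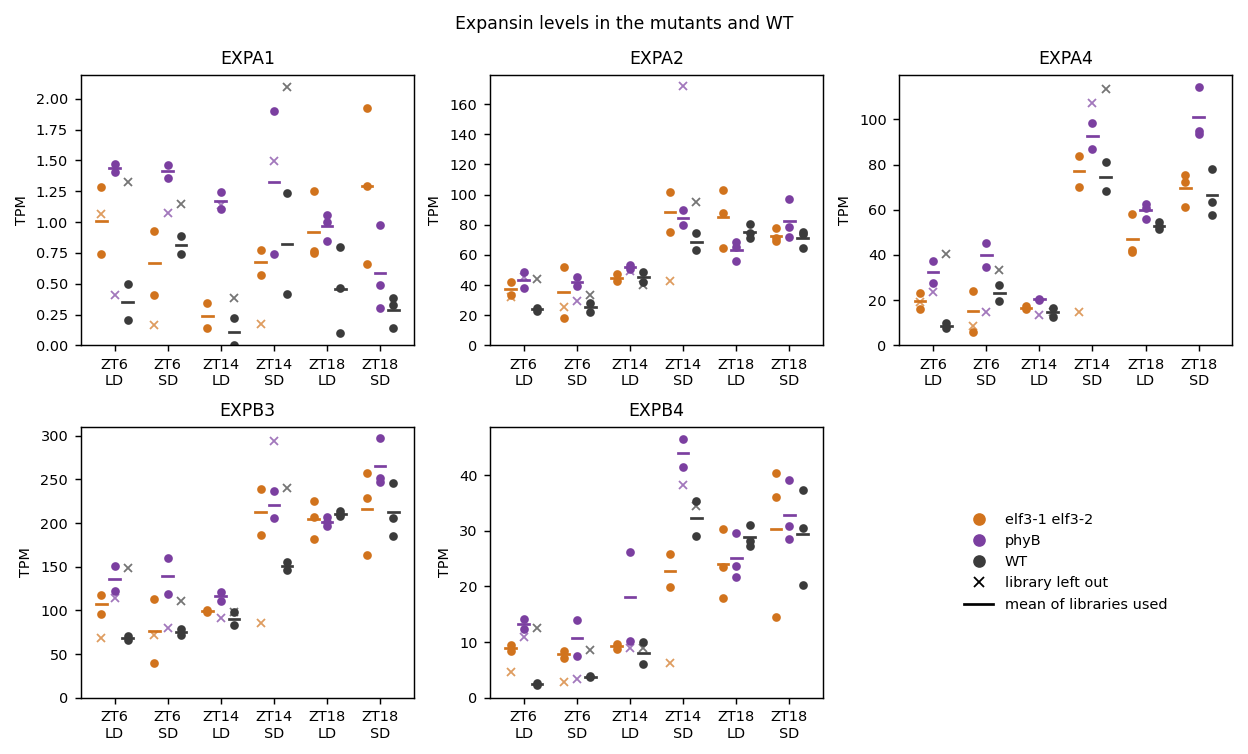
TPM of each expansin in elf3-1 elf3-2, phyB and WT for both day lengths at their 3 shared times; points are libraries used, bars their means, crosses libraries left out. At ZT6 the phyB libraries used lay above the WT libraries used for every gene, and so did the left-out WT libraries. The left-out phyB libraries did not for EXPA1 in LD and for EXPA4 and EXPB4 in SD. The share of all genes without overlap was not counted.

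At ZT6 in LD, 5 of 5 expansins were higher in phyB, where 21.2% of genes differed and 10.7% were higher. EXPA4 stood at 27.7 and 37.4 TPM in phyB and 7.48 and 9.89 TPM in WT (1.97 ± 0.31, adjusted p = 8.4e-06). EXPB4 stood at 12.4 and 14.1 TPM in phyB and 2.35 and 2.66 TPM in WT (2.32 ± 0.45, adjusted p = 0.00015). EXPB3 stood at 122 and 151 TPM in phyB and 65.9 and 70.5 TPM in WT (1.07 ± 0.25, adjusted p = 0.0015). These 3 calls held without any 1 library. EXPA2 stood at 38.2 and 48.7 TPM in phyB and 23.0 and 24.8 TPM in WT (0.93 ± 0.26, adjusted p = 0.0068), a call lost without phyB replicate 3 (0.095) or WT replicate 2 (0.054). EXPA1 held 34 and 42 counts in phyB and 12 and 6 counts in WT (2.15 ± 0.68, adjusted p = 0.019), lost without phyB replicate 2 (0.067) or 3 (0.07) or WT replicate 3 (0.22). The phyB and WT libraries used did not overlap for any of the 5. With 2 libraries in each group such gaps can arise without a change, and the share of all genes showing one was not counted.

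The libraries left out decide this comparison. Replicate 1 labelled WT at ZT6 LD held 40.2 TPM of EXPA4, 12.5 TPM of EXPB4 and 149 TPM of EXPB3, and replicate 1 labelled phyB held 23.8, 10.9 and 114 TPM. With them in the fit the differences were 0.63 for EXPA4, 1.10 for EXPB4, 0.45 for EXPB3, 0.54 for EXPA2 and 0.81 for EXPA1, and none of the 5 nor any other gene passed (0% called). Of the markers, 1 of 5 root genes, 0 of 4 genes of dividing cells and 1 of 3 green leaf genes were higher in phyB at ZT6 LD, and their part was not tested.

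At ZT6 in SD 4 of 5 passed, all higher in phyB (21.4% of genes called, 9.69% higher). EXPB3 stood at 119 and 160.4 TPM in phyB and 72.1 and 78.1 TPM in WT (0.90 ± 0.25, adjusted p = 0.0074). EXPB4, its neighbour, stood at 7.55 and 13.9 TPM in phyB and 3.81 and 3.77 TPM in WT (1.47 ± 0.43, 0.011). EXPA2 stood at 39.3 and 45.1 TPM in phyB and 27.9 and 22.4 TPM in WT (0.75 ± 0.25, 0.031), and EXPA4 stood at 34.7 and 45.1 TPM in phyB and 26.6 and 19.8 TPM in WT (0.79 ± 0.28, 0.04). EXPA1 did not pass (0.81 ± 0.55, adjusted p = 0.34). Each of the 4 calls was lost without single libraries. Without phyB replicate 3 the adjusted p was 0.13 for EXPB3, 0.25 for EXPB4, 0.17 for EXPA2 and 0.28 for EXPA4. Without WT replicate 3 it was 0.086 for EXPB4, 0.27 for EXPA2 and 0.33 for EXPA4. Without WT replicate 2 it was 0.055 for EXPB3 and 0.052 for EXPB4, and without phyB replicate 2 it was 0.06 for EXPA2. None of the 5 passed with all 74 libraries (adjusted p = 0.98 to 1).

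At ZT14 in LD EXPB4 and EXPA1 were higher in phyB (24.6% of genes called, 12.4% higher). EXPB4 stood at 26.2 and 10.1 TPM in phyB and 10.0 and 6.02 TPM in WT (1.22 ± 0.37, adjusted p = 0.013). Without phyB replicate 2 the value was 0.38 (adjusted p = 0.64), and without WT replicate 3 it was 0.95 (0.15). EXPA1 held 34 and 32 counts in phyB and 0 and 6 counts in WT (adjusted p = 0.0036; 0.08 without WT replicate 2). Neither passed with all 74 libraries (adjusted p = 1 for both). CDKB2;1 of the 4 dividing-cell genes (1.06, adjusted p = 0.045) and RCA of the 3 green leaf genes (1.90, 2.5e-11) were higher in phyB there too, and their part was not tested. At ZT14 in SD none of the 5 passed with edgeR, DESeq2 or limma or at an unadjusted p under 0.05 (28.2% of genes called), with differences between 0.17 ± 0.24 for EXPA2 and 0.51 ± 0.55 for EXPA1.

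At ZT18 no library was left out. In LD none of the 5 passed with edgeR, DESeq2 or limma or at an unadjusted p under 0.05 (29.6% of genes called). EXPA2 stood at 56.3, 65.2 and 68.6 TPM in phyB and 71.1, 80.2 and 74.7 TPM in WT (−0.30 ± 0.20), and EXPB4 stood at 21.7, 23.7 and 29.7 TPM in phyB and 27.3, 31.1 and 28.2 TPM in WT (−0.24 ± 0.26). EXPA1 was at 0.90 ± 0.57, without overlap of the groups (adjusted p = 0.25), and in SD at 1.04 ± 0.72 (0.34). In SD EXPA4 alone passed with edgeR, and none passed with DESeq2 or limma (0.054 for EXPA4). It stood at 94.9, 93.5 and 114 TPM in phyB and 63.5, 57.7 and 77.9 TPM in WT (0.57 ± 0.21, adjusted p = 0.0499, 21.9% of genes called, 10.3% higher). The groups did not overlap, but the call was lost without phyB replicate 1 (0.077), 2 (0.064) or 3 (0.17) or WT replicate 1 (0.13) or 2 (0.18), and with all 74 libraries in the fit (0.55). In all, 12 of 30 phyB values passed and all were higher (24.5% of all values), against 0 of 30 with all 74 libraries (1.44% of all values).

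**Figure D4:**
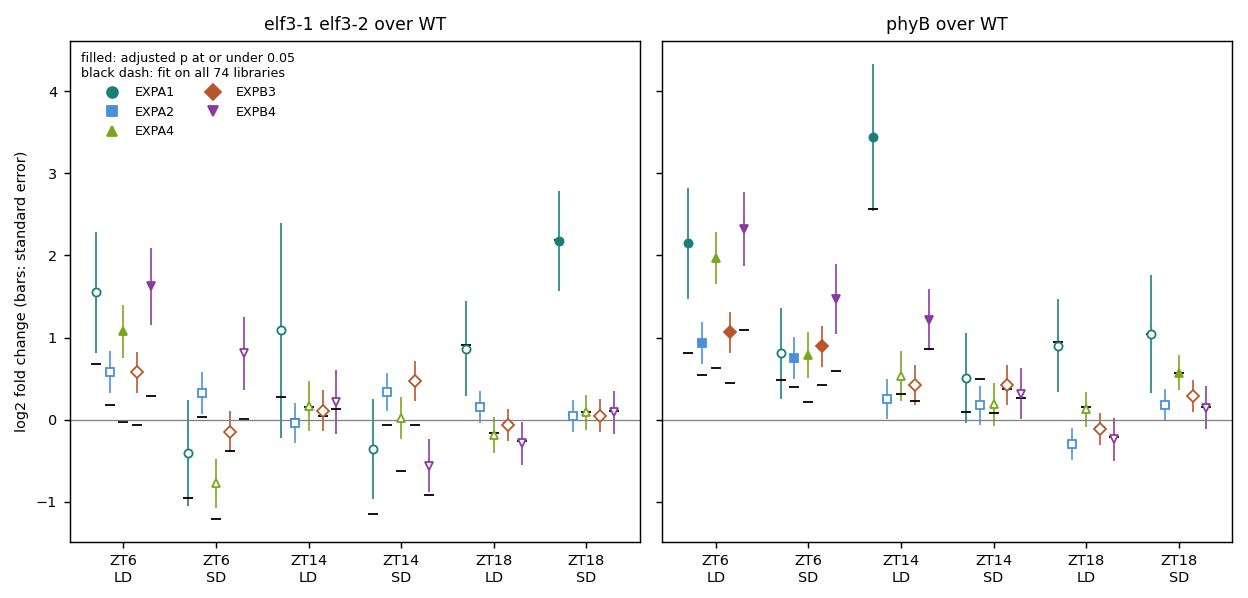
Log2 fold change over WT (± standard error) in elf3-1 elf3-2 and phyB for the 6 conditions; filled symbols passed at an adjusted p of 0.05 and black dashes are the values with all 74 libraries. The phyB values were highest at ZT6 LD and, for EXPA1, at ZT14 LD, and the phyB dashes at ZT6 lay nearer 0 than the phyB symbols.

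The rise from day to night was smaller in phyB than in WT in LD. The WT rise at ZT18 over ZT6 in LD was 1.37 ± 0.24 for EXPA2, 2.32 ± 0.29 for EXPA4, 1.34 ± 0.23 for EXPB3 and 3.06 ± 0.41 for EXPB4, where 38.7% of genes were called and 21.1% higher, calls that held without any 1 library. In phyB none of these passed with edgeR (0.15 ± 0.22, 0.47 ± 0.25, 0.17 ± 0.22 and 0.51 ± 0.32; 39.2% of genes called), with DESeq2 or at an unadjusted p under 0.05. The deposited TPM values gave another answer, since limma on log2(TPM + 1) called all 4, at 0.54, 0.87, 0.57 and 0.86 (adjusted p = 0.004 to 0.03). On that scale the median of all genes in this contrast was 0.36, against 0.07 with the scaling of the counts, and the 4 genes lay 0.18 to 0.51 above it. The test of the difference itself passed for all 4 genes, at −1.23 ± 0.32 for EXPA2 (adjusted p = 0.0064), −1.84 ± 0.38 for EXPA4 (0.00056), −1.18 ± 0.32 for EXPB3 (0.0081) and −2.56 ± 0.52 for EXPB4 (0.0005), where 15.5% of genes were called and 8.66% were lower. It held without any 1 library and was called for the same number of genes, 4 of 5, by DESeq2 and limma. With all 74 libraries the WT rises of EXPA4 (0.074) and EXPB3 (0.058) did not pass, and the difference passed for none (−0.82, −0.48, −0.54 and −1.31, adjusted p = 0.33 to 0.8; 0.131% of genes called). In SD the difference passed for no expansin with edgeR (7.07% of genes), with 1 of 5 at an unadjusted p under 0.05, 1 with DESeq2 and 0 with limma. In SD all 5 expansins passed in phyB (42.8% of genes called) and in WT (44.3%). The rise in phyB was 0.62 ± 0.23 for EXPA2 (adjusted p = 0.024), 0.99 ± 0.25 for EXPA4 (0.0012), 0.58 ± 0.22 for EXPB3 (0.035) and 1.24 ± 0.32 for EXPB4 (0.0018), and in WT it was 1.19 ± 0.24, 1.21 ± 0.26, 1.19 ± 0.23 and 2.57 ± 0.38. EXPA1 instead fell, by 1.57 ± 0.54 in phyB (0.016) and 1.81 ± 0.72 in WT (0.037). Of the phyB calls that of EXPA4 held without any 1 library. Those of EXPB4 (0.072), EXPB3 (0.33), EXPA2 (0.17) and EXPA1 (0.052) were lost without replicate 2 at ZT6. Without replicate 3 at ZT6 EXPA2 (0.071) and EXPA1 (0.1022) were lost, without replicate 3 at ZT18 EXPA2 (0.11) and EXPB3 (0.11), and without replicate 1 at ZT18 EXPA1 (0.075). The WT call of EXPA1 was lost without replicate 2 (0.15) or 3 (0.082) at ZT6 or 2 (0.055) or 3 (0.13) at ZT18.

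In elf3-1 elf3-2 the rise passed for EXPA2, EXPA4, EXPB3 and EXPB4 in both day lengths (30.9% of genes called in LD, 16.1% higher, and 40.5% in SD, 20.2% higher). It was 0.95 ± 0.23, 1.05 ± 0.27, 0.70 ± 0.23 and 1.15 ± 0.34 in LD (adjusted p = 0.0013 to 0.016) and 0.92 ± 0.23, 2.07 ± 0.27, 1.38 ± 0.23 and 1.85 ± 0.34 in SD (9.1e-08 to 0.0013). In LD EXPA4 (0.084), EXPB3 (0.17) and EXPB4 (0.087) were lost without replicate 3 at ZT6, and EXPB3 (0.0502) without replicate 2 at ZT18. In SD EXPA2 was lost without replicate 2 at ZT6 (0.21). The LD rise differed from that of WT with edgeR for EXPB4 alone (−1.91 ± 0.54, adjusted p = 0.032), where 4.75% of genes were called; DESeq2 and limma called 2 of 5 each. That call was lost without elf3-1 elf3-2 replicate 2 at ZT6 LD (0.17) or 1 at ZT18 LD (0.072), without WT replicate 2 (0.14) or 3 (0.13) at ZT6 LD or 2 at ZT18 LD (0.06), and with all 74 libraries (0.81). EXPA4 (−1.27 ± 0.39, adjusted p = 0.052; 0.031 with limma) passed without elf3-1 elf3-2 replicate 3 at ZT6 LD (0.028) or 2 at ZT18 LD (0.0304). In SD the difference passed for none (12.5% of genes called; 2 of 5 at an unadjusted p under 0.05, 1 with DESeq2, 0 with limma). The libraries at ZT6 decide this too: without replicate 3 the rise was larger than in WT for EXPA1 (0.029), EXPA2 (0.79, adjusted p = 0.041), EXPA4 (7.6e-07) and EXPB3 (0.00033), without replicate 2 it was smaller for EXPA2 (−0.85, 0.022), and without replicate 3 at ZT18 EXPA1 passed (0.0223).

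In elf3-1 elf3-2, no expansin passed with edgeR on average over the 6 conditions, where 28.1% of genes did; 3 of 5 had an unadjusted p under 0.05, and 3 passed with DESeq2 and 2 with limma. The differences from WT were 0.82 ± 0.33 for EXPA1 (adjusted p = 0.055), 0.23 ± 0.09 for EXPA2 (0.063), 0.06 ± 0.11 for EXPA4 (0.76), 0.17 ± 0.09 for EXPB3 (0.21) and 0.31 ± 0.15 for EXPB4 (0.12). EXPA1 passed in 8 of the 28 fits that left out 1 library, without replicate 2 of elf3-1 elf3-2 at ZT6 LD, ZT6 SD or ZT14 LD or replicate 3 at ZT18 SD, and without WT replicate 2 at ZT6 LD or 3 at ZT14 LD, ZT14 SD or ZT18 LD (adjusted p = 0.024 to 0.047). EXPA2 passed in 4, without elf3-1 elf3-2 replicate 2 at ZT6 SD (0.0002) or ZT14 SD (0.035) or 1 at ZT18 LD (0.036), or WT replicate 2 at ZT6 SD (0.035). EXPB3 passed without elf3-1 elf3-2 replicate 2 at ZT6 SD (0.0016) and EXPB4 without its replicate 2 at ZT18 SD (0.026). Among single conditions 3 of 30 values passed, all higher (9.64% of all values), and none with all 74 libraries (0.902%). At ZT14 none of the 5 passed in LD (4.09% of genes called) or SD (5.7%), nor at ZT18 in LD (13.9%), with edgeR, DESeq2 or limma or at an unadjusted p under 0.05.

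At ZT6 in LD EXPB4 stood at 9.51 and 8.44 TPM in elf3-1 elf3-2 and 2.35 and 2.66 TPM in WT (1.62 ± 0.47, adjusted p = 0.034). EXPA4 stood at 23.0 and 16.2 TPM in elf3-1 elf3-2 and 7.48 and 9.89 TPM in WT (1.08 ± 0.32, adjusted p = 0.041), where 5.39% of genes were called and 3.22% were higher. All 5 genes lay higher than WT without overlap there, but the other 3 did not pass (adjusted p = 0.21 to 0.26). With 2 libraries in each group such gaps can arise without a change, and the share of all genes showing one was not counted. The EXPB4 call was lost without elf3-1 elf3-2 replicate 2 (0.29) or 3 (0.051) or WT replicate 2 or 3 (0.19 each), and that of EXPA4 without elf3-1 elf3-2 replicate 2 (0.51) or WT replicate 2 (0.29) or 3 (0.13). With all 74 libraries EXPA4 was at −0.03 and EXPB4 at 0.29. At ZT18 in SD EXPA1 held 26, 50 and 18 counts in elf3-1 elf3-2 and 10, 8 and 4 counts in WT (2.18 ± 0.61, adjusted p = 0.016, 9.39% of genes called, 5.79% higher). The groups did not overlap, and the call was lost without elf3-1 elf3-2 replicate 2 (0.18) or WT replicate 3 (0.09) and with all 74 libraries (0.35).

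At ZT6 in SD the 2 elf3-1 elf3-2 libraries stood far apart for 3 genes, with EXPA4 at 5.72 and 24.3 TPM, EXPA2 at 18.3 and 52.3 TPM and EXPB3 at 39.4 and 113 TPM, against 26.6 and 19.8, 27.9 and 22.4, and 72.1 and 78.1 TPM in WT. EXPB4 did not share this spread, at 7.13 and 8.44 TPM in elf3-1 elf3-2 and 3.81 and 3.77 TPM in WT, without overlap (0.81 ± 0.44, edgeR's adjusted p = 0.22; 0.0496 with limma). No expansin passed with edgeR (19.4% of genes did; 1 of 5 at an unadjusted p under 0.05, 1 with DESeq2, 2 with limma). Either library alone gave another result. Without replicate 2 EXPA2 was higher in elf3-1 elf3-2 (0.90, adjusted p = 0.0028), and without replicate 3 EXPA2 (−0.74, 0.019), EXPA4 (−2.29, 1.8e-07) and EXPB3 (−1.21, 5.8e-05) were lower. EXPA4 passed too without WT replicate 3 (0.043). EXPA4 was at −0.78 ± 0.30 with all 4 (adjusted p = 0.063), and the single call of a day length difference between genotypes, EXPA4 at ZT6 (1.85 ± 0.44, adjusted p = 0.026), rests on this group. It was lost without elf3-1 elf3-2 replicate 2 in LD (0.079) or SD (0.12), without WT replicate 2 (0.13) or 3 (0.073) in LD or WT replicate 2 in SD (0.23), and with all 74 libraries (0.56). Without elf3-1 elf3-2 replicate 3 in SD, EXPA2 (0.005) and EXPB3 (5.5e-05) passed as well.

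The mutants were also set against each other directly. Averaged over conditions, EXPA4 (0.63 ± 0.11, adjusted p = 5.2e-06), EXPB4 (0.56 ± 0.13, 0.00065), EXPB3 (0.33 ± 0.09, 0.003) and EXPA1 (0.65 ± 0.24, 0.02) were higher in phyB than in elf3-1 elf3-2, where 52% of genes differed and 26.5% were higher. EXPA2 did not pass (0.10 ± 0.09, adjusted p = 0.41; 0.00074 without elf3-1 elf3-2 replicate 3 at ZT6 SD). The calls of EXPA4, EXPB4 and EXPB3 held without any 1 library and with all 74 (adjusted p = 0.0069, 0.012 and 0.024; 34% of genes called). EXPA1 was lost without elf3-1 elf3-2 replicate 2 at ZT14 LD (0.057) or phyB replicate 3 at ZT14 SD (0.092) or ZT18 SD (0.064), and with all 74 libraries (0.083). At ZT18, where no library was left out, none of the 5 passed with edgeR in LD (35.2% of genes) or SD (31.6%). At an unadjusted p under 0.05 there were 1 in LD and 2 in SD, DESeq2 called 1 in LD and 0 in SD, and limma none. EXPA2 passed in LD without elf3-1 elf3-2 replicate 1 (0.027), and EXPA1 in SD without elf3-1 elf3-2 replicate 3 (0.029) or phyB replicate 3 (0.034). The values ran from −1.13 ± 0.51 for EXPA1 to 0.48 ± 0.21 for EXPA4, both in SD. The same WT, elf3-1 elf3-2 and phyB libraries serve several of these comparisons, which are therefore not independent.

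EXPA1, EXPA2, EXPB3 and EXPB4 had their highest levels in lux at ZT14 in SD. EXPB4 stood at 223, 234 and 239.9 TPM in lux and 29.1 and 35.4 TPM in WT, a log2 fold change of 2.58 ± 0.30 (adjusted p = 1.6e-09). EXPA1 stood at 16.6, 14.8 and 13.0 TPM (360, 459 and 390 counts) in lux and 0.416 and 1.23 TPM (10 and 38 counts) in WT (3.82 ± 0.34, adjusted p = 6.9e-13). EXPA2 stood at 187, 210.2 and 198 TPM in lux and 63.5 and 74.2 TPM in WT (1.28 ± 0.22, adjusted p = 4.5e-06). EXPB3 stood at 307, 348 and 320.2 TPM in lux and 146 and 156 TPM in WT (0.87 ± 0.23, adjusted p = 0.001). EXPA4 did not pass, at 90.7, 96.7 and 96.3 TPM in lux and 68.3 and 81.1 TPM in WT (0.10 ± 0.24, adjusted p = 0.74), although the TPM values did not overlap. The median of all genes was 0.08 in this contrast and 0.23 on the TPM scale, where EXPA4 was at 0.34.

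So 4 of 5 expansins were higher in lux than in WT, in a comparison where 67.3% of genes differed and 36.8% were higher. The lux libraries bear sample numbers apart from the run of all other libraries. Whether they were prepared together with them was not examined, so genotype and preparation cannot be told apart there. The 4 calls held without any 1 library. When all 74 libraries entered, EXPB3 did not pass (0.67, adjusted p = 0.054) and the other 3 did (56.2% of genes called). Against elf3-1 elf3-2 at the same time EXPA1 (4.18 ± 0.34, adjusted p = 5.3e-14), EXPB4 (3.13 ± 0.31, 3.7e-11) and EXPA2 (0.94 ± 0.22, 0.00027) were higher in lux, where 64.4% of genes differed and 34.9% were higher. EXPB3 (0.39 ± 0.22, adjusted p = 0.12) and EXPA4 (0.08 ± 0.23, 0.79) did not pass with edgeR, and with all 74 libraries EXPB3 did (0.74, adjusted p = 0.036, 51.9% of genes called). EXPB3 passed with limma too (0.62, adjusted p = 0.013), on a scale where the median of all genes was 0.19. The ratio of EXPB3 to EXPB4 TPM was 1.33 to 1.49 in the 3 lux libraries and lay between 4.25 and 28.0 in every other library used.

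**Figure D5:**
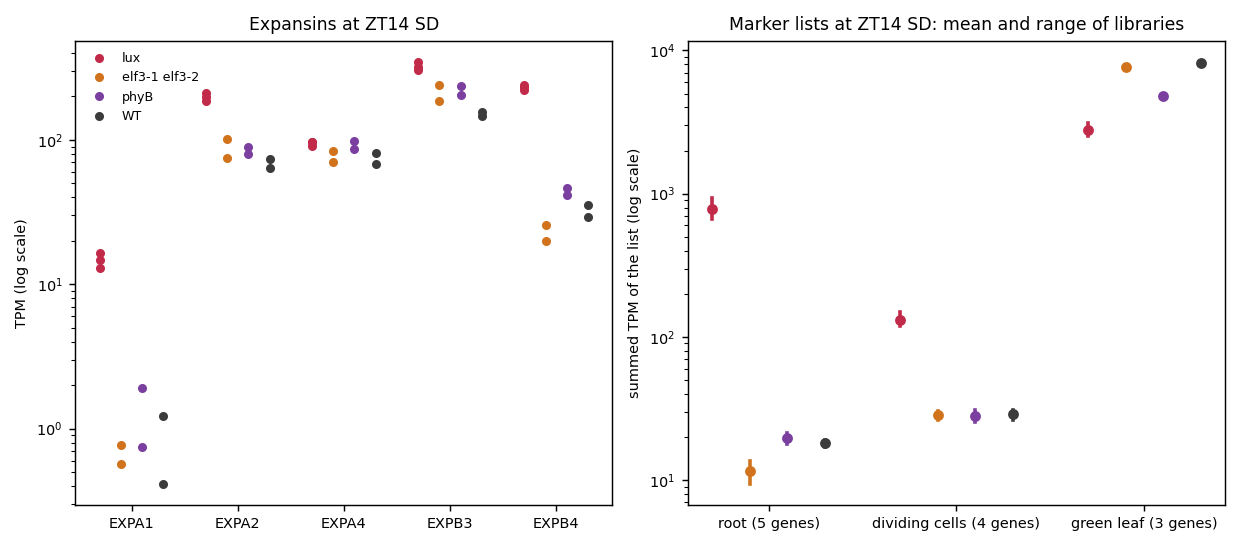
Left, TPM (log axis) of each expansin at ZT14 SD in lux, elf3-1 elf3-2, phyB and WT, 1 point a library. Right, summed TPM (log axis) of 5 root, 4 dividing-cell and 3 green leaf genes in the same groups, as the mean (point) and the range of libraries (line); the root and dividing-cell sums of lux lay above those of every other group.

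The lux libraries differed from all others in their tissue markers. The summed level of 5 root genes was 667 to 928 TPM in the 3 lux libraries and 8.91 to 26.1 TPM in the 54 others. That of 4 genes of dividing cells and meristems was 119 to 148 TPM in lux and 7.88 to 31.5 TPM in the others, and that of 3 green leaf genes was 2536 to 3094 TPM in lux and 4468 to 26443 TPM in the others. All 5 root and all 4 dividing-cell genes were higher in lux than in WT, and of the green leaf genes 1 was higher and 2 were lower. Of the root transporters, Lsi2 was at 0 in 39, NRT2.1 in 33 and AMT1;2 in 46 of the 57 libraries, and the meristem gene OSH1 was at 0 in 53. The other genes of these lists were found more widely. Lsi1 and IRT1 among the root genes and PCNA and CDKB2;1 among the dividing-cell genes were at 0 in no library, and CYCB2;2 was at 0 in 16. Every library is labelled as whole plants. The part of this difference in the lux values of the expansins was not tested. In such bulk samples fewer cells of a type and less RNA per cell cannot be told apart.

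Across the 25 groups EXPA2, EXPA4, EXPB3 and EXPB4 had r of 0.774 to 0.869 with each other, and EXPA1 had r of 0.316 to 0.627 with them. Likeness was measured as Pearson's r of group means of log2(CPM + 1), where CPM is counts scaled by library size, a description over groups that share libraries with the tests above. EXPA2 and EXPB3, an α- and a β-expansin on different chromosomes, had r = 0.863, and EXPB3 ranked 1 among 28904 genes for EXPA2. EXPA4 ranked 2 for EXPB3 (r = 0.869). Over these 25 groups the chromosome neighbours EXPB3 and EXPB4 were less alike (r = 0.774, rank 32 for EXPB3), and EXPB4 was nearest among the members to EXPA2 (0.829) and EXPA4 (0.815). Other genes were more alike: EXPB3 ranked 473 for EXPB4, EXPA2 ranked 169 for EXPB4 and 141 for EXPA4, and over the 12 WT groups EXPA2 ranked 1671 for EXPB4 (r = 0.692). Over the same WT groups EXPB3 ranked 41 for EXPA2 (r = 0.8375) and EXPA4 ranked 344 for EXPB3 (0.779). Without the lux group, over 24 groups, EXPA4 and EXPB4 had r = 0.884 and EXPA2 and EXPB3 0.864. EXPB4 was then more like its neighbour EXPB3 (0.8045) than EXPA2 (0.772), as it was over the 12 WT groups (0.756 and 0.692). EXPA1 had r of 0.142 to 0.319 with the other members without lux. Of the other genes, the most alike were Os07g0568700 for EXPA1 (0.939), Os02g0658800 for EXPA2 (0.860), Os01g0761300 for EXPA4 (0.873), Os06g0544100 for EXPB3 (0.876) and Os03g0209500 for EXPB4 (0.933).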

How the data were processed

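The submitters' processing notes name HISAT2, StringTie and the rice genome build IRGSP-1.0 for these RNA sequencing libraries; versions and strand handling are not given in the sources used here. The authors deposited 2 tables over 37849 genes, one of raw read counts per gene and one of TPM values. Columns were matched to labels by name, those named ZT00 to the ZT24 labels. 1 column, the mean of elf3-1 elf3-2 replicates 2 and 3 at ZT14 LD, was not used.

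Counts of 57 libraries in 25 groups were fitted together in R 4.3.3 with edgeR 4.0.16 (TMM scaling, filterByExpr, robust glmQLFit, glmQLFTest; 28905 genes tested, 8944 left out) with Benjamini-Hochberg adjustment over all tested genes and a threshold of 0.05. Alternatives were all 74 libraries, DESeq2 1.42.0 and its size factors, no filter on low counts, estimateDisp, a replicate block, only the compared groups, each library left out, and limma 3.58.1 on log2(TPM + 1) or log2(TPM + 0.1), with and without a filter of 1 TPM in 2 libraries. Fold changes from limma understate low genes.

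The genes, the lists and the 17 libraries left out were chosen with earlier results of these data known. The genes named are the 5 expansins and, for likeness, those with the highest Pearson r with a member. RefSeq loci other than the members could not be tied to the gene IDs of the tables, so other expansins were not analysed here. Same-numbered libraries of mutant and WT deviated together only weakly (r of −0.087 to 0.156 at ZT18), so numbers were not taken as pairs.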

Additional observations from a re-analysis of the deposited data

Results flagged for a closer look

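Tests of the difference between 2 groups' effects passed for 10 values. In WT the daily course differed between LD and SD for EXPA2 (F = 15.7), EXPA4 (13.0), EXPB3 (7.10) and EXPB4 (6.46), of which EXPB3 (edgeR's adjusted p = 0.086) and EXPB4 (0.054) lost their call with all 74 libraries. The step from ZT6 to ZT18 in LD was smaller in phyB than in WT for EXPA2 (−1.23 on the log2 scale), EXPA4 (−1.84), EXPB3 (−1.18) and EXPB4 (−2.56), and all 4 calls were lost with all 74 libraries (adjusted p = 0.33 to 0.8).

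In elf3-1 elf3-2 that step was smaller than in WT for EXPB4 (−1.91, edgeR's adjusted p = 0.032), where 4.75% of genes were called. This call was lost without elf3-1 elf3-2 replicate 2 at ZT6 LD (0.17) or 1 at ZT18 LD (0.072), without WT replicate 2 (0.14) or 3 (0.13) at ZT6 LD or 2 at ZT18 LD (0.06), and with all 74 libraries (−0.55, adjusted p = 0.81). The day length effect at ZT6 differed between elf3-1 elf3-2 and WT for EXPA4 (1.85), a call lost on leaving out any 1 of 5 libraries (adjusted p = 0.073 to 0.23). No cause was tested for any of these.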

How the results depend on the processing

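The libraries left out mattered most. With all 74, calls fell to 0 of 30 for phyB over WT (12 without them), 0 for elf3-1 elf3-2 over WT (3), 1 for the phyB average (5), 4 for WT day length (13), 1 for elf3-1 elf3-2 day length (5), 0 for genotype by day length (1), 0 for genotype by time (5), 11 for WT steps (26), and, for ZT18 over ZT6, 5 in WT (9), 5 in elf3-1 elf3-2 (8) and 3 in phyB (5). The WT day length average, all-time and interaction counts were 1, 3 and 2 (3, 5 and 4). The share of all genes called fell too, from 24.5% to 1.44% for phyB over WT and from 9.64% to 0.902% for elf3-1 elf3-2 over WT. It fell from 29.4% to 8.88% for WT day length, from 31% to 17.1% for WT steps and from 46.5% to 13.9% for the phyB average. For the all-time and interaction tests it fell from 66.6% to 42.3% and from 53.6% to 26.7%. For most other counts in this section it was not counted. Of 129 single values, 52 kept their direction and side of the threshold, 72 lost their call, 3 gained one and 2 turned direction: EXPA4 in elf3-1 elf3-2 over WT at ZT6 LD (−0.034) and in WT at ZT6 over ZT2 in LD (0.42). The cause was not tested.

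Limma called 5 and 5 elf3-1 elf3-2 values (pseudocounts 1 and 0.1), and 9, 8 and 9 (the last unfiltered) for phyB at ZT18 over ZT6. Using only the compared groups gave 0 elf3-1 elf3-2 values, 0 genotype by day length, 8 for phyB at ZT18 over ZT6, 1 for phyB over elf3-1 elf3-2 at ZT18 in each day length, and 5 for the WT day length average. DESeq2 gave 8 for genotype by time and 1 for phyB over elf3-1 elf3-2 at ZT18 LD, as did its size factors in edgeR (1). The elf3-1 elf3-2 average, 0 in the main test, gave 1 with DESeq2 size factors, 1 with estimateDisp, 3 with DESeq2, and 2, 3 and 1 with limma.

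With the replicate block the elf3-1 elf3-2 average gave 1 call, and of 129 single values 1 lost its call. The replicate numbers were not taken as pairs, and whether they pair the libraries was examined at ZT18 alone.

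Leaving out 1 library gave 1 to 6 calls for elf3-1 elf3-2 over WT, 8 to 12 for phyB, 5 to 8 for elf3-1 elf3-2 day length, 0 to 3 for genotype by day length, 4 to 9 for genotype by time, 0 to 3 for the elf3-1 elf3-2 average, and 0 to 1 for phyB over elf3-1 elf3-2 at ZT18 in LD and in SD. For ZT18 over ZT6 it gave 5 to 8 in elf3-1 elf3-2 and 1 to 5 in phyB. Most groups hold 2 libraries, so a missed threshold does not show that values were alike, and EXPA1, at few counts, is the least precise.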
